A study of Mus musculus with 2 samples.

Results

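AP-1 transcription factors were examined in mRNA sequencing of mouse lung cancer cells. The members were 10 genes chosen by symbol, namely *Fos*, *Fosb*, *Fosl1*, *Fosl2*, *Jun*, *Junb*, *Jund*, *Atf3*, *Maff* and *Jdp2*, and all 10 were found among the 23183 genes of the files. KPR- is an immortalized line grown from a lung tumor of a mouse without tamoxifen, with the alleles *K-Ras* LSL-G12D/+, *Runx3* flox/FSF and *p53* flox/flox, a Tomato* reporter and the Flp ERT2 recombinase, in which nasal Ad-Cre had switched on oncogenic *K-Ras* and removed *p53* and the floxed *Runx3* allele. KPR_restored cells are the same line after 4-OHT (4-hydroxytamoxifen), which lets the Flp ERT2 recombinase remove the stop cassette from the other *Runx3* allele. Both groups therefore share the *K-Ras*, *p53* and Tomato* alleles and differ by the labels in *Runx3* (RUNX3 -/- against RUNX3 -/+). Each condition is 1 library, at 0 h for KPR- and 16 h for KPR_restored, and the labels give 1 μM 4-OHT for both.

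With 1 library per condition, no replicate error exists for any difference, and no p-value is given. *Runx3*, the restored gene, stood at 0.348 FPKM in KPR- and 0.349 FPKM in KPR_restored (about 28 and 29 fragments, counting interval of the log2 difference -0.79 to 0.81), so its level did not check the labels, and every direction below is that of the library labelled KPR_restored against the library labelled KPR-. *Runx3* restoration, 4-OHT and hours in culture cannot be told apart, nor can a change in the share of cells be told from a change in RNA per cell. The libraries held about 21.7 M and 22.4 M fragments, as estimated from the steps of low FPKM values. The 5 epithelial markers (*Epcam*, *Krt8*, *Krt18*, *Krt19*, *Cdh1*) summed to 4880 FPKM in KPR- and 4630 FPKM in KPR_restored. The lung alveolar markers *Sftpc*, *Sftpb* and *Lamp3* were listed at 0 in both libraries, and *Nkx2-1* was at 0.0444 and 0.0216 FPKM. Among immune markers, *Adgre1* and *Cd3e* were at 0 in both libraries, *Ptprc* was at 0 and 0.00892 FPKM, and *Cd68* was at 3.08 and 6.78 FPKM. The 3 endothelial markers summed to 1.16 and 2.22 FPKM, and the 6 mesenchymal markers to 1790 and 1470 FPKM, mostly *Vim*, while *Col1a1* was at 12.2 and 4.21 FPKM (log2 difference -1.53, counting interval -1.68 to -1.39). The part of other cell types in the results below was not tested.

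On GRCm38 the members lie, by GENCODE M21 and with their strand, as follows: *Fos* at chr12:85473890-85477273 (plus), *Fosb* at chr7:19302696-19310051 (minus), *Fosl1* at chr19:5447547-5455946 (plus), *Fosl2* at chr5:32135801-32157842 (plus), *Jun* at chr4:95049034-95052222 (minus), *Junb* at chr8:84974484-84978718 (minus), *Jund* at chr8:70698949-70700616 (plus), *Atf3* at chr1:191170296-191218039 (minus), *Maff* at chr15:79346621-79359076 (plus), *Jdp2* at chr12:85599027-85639878 (plus).

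AP-1 is a dimer of basic leucine zipper (bZIP) proteins that binds the DNA sequence TGANTCA. Fos proteins do not pair with each other and need a Jun partner, whereas Jun proteins also form homodimers. Many of these genes are immediate-early genes, switched on within minutes by growth factors, RAS-MAPK signalling and stress. ATF3 and JDP2 bind the same sites or the related cyclic AMP response element and mostly repress transcription, and MAFF, a small MAF protein, lacks an activation domain of its own.

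Several bZIP genes are known to be controlled by bZIP proteins, their own products included, so the sequences before their starts are shown. RefSeq windows of 250 bases before a transcription start on GRCm38.p6 were matched for 9 of the 10 members, in 13 windows, with no entry for *Fosl1*. The 5 windows below are those that hold a bZIP-type motif, except for a further *Maff* window with 95 of its bases in annotated exons. Of those shown, the *Jdp2* window has 62 of its 250 bases in annotated exons and the *Atf3* window 7. The last 150 bases before the start are given 5′ to 3′, with the motifs in capitals. They were searched on both strands and are TGACGT (the core of the cyclic AMP response element, whose full form is TGACGTCA), TGACATCA (the variant known from the *Jun* promoter) and TGATGNAA (the form bound by ATF4 together with a C/EBP protein).
Fos (chr12:85473740-85473889, plus strand): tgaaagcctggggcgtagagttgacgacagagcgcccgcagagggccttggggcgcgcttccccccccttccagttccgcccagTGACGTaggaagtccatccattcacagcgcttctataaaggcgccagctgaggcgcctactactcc
Jun (chr4:95052223-95052372, minus strand): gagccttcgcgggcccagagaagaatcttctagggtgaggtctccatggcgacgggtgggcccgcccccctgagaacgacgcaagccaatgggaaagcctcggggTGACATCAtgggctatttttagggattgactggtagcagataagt
Atf3 (chr1:191183334-191183483, minus strand): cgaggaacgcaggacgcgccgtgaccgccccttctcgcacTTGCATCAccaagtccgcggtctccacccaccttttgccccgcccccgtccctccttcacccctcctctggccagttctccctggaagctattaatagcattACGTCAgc
Jdp2 (chr12:85599266-85599415, plus strand): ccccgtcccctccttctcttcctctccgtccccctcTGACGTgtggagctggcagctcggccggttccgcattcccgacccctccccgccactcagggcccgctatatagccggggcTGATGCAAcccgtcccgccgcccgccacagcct
Maff (chr15:79347370-79347519, plus strand): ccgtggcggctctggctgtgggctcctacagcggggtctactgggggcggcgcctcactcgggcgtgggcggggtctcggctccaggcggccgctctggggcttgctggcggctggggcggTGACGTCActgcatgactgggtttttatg
TGACGT was found for *Fos*, *Atf3*, *Jdp2* and *Maff*, in 4 of the 13 windows, and in 6.47% of all 32841 windows. The full TGACGTCA, which contains TGACGT, was found for *Maff* alone and in 1.55% of all windows. TGACATCA was found for *Jun*, 45 to 38 bases before the start, and in another *Maff* window, and in 2.93% of all windows. TGATGNAA was found for *Atf3* and *Jdp2*, in 2 of the 13 windows, and in 3.45% of all windows. TGANTCA, the RUNX motif TGTGGT and the CArG box, which serum response factor binds, were in 0 of the 13 member windows and in 2217, 4613 and 482 of all windows. Bases further than 250 before a start were not searched. The absence of a motif therefore holds for these windows only, and a member may carry a CArG box or another of these motifs elsewhere. The *Jund* window ends before a RefSeq start at 70697739, upstream of the GENCODE gene. The *Atf3* window ends before a RefSeq start at 191183333, inside the GENCODE gene. The *Fosl2* window and another *Jdp2* window lie wholly in annotated exons. A match describes the letters of these windows and not binding, and whether any motif bears on the differences was not tested. *Jdp2* and *Maff* have 3 windows each and the other matched members 1 each.

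All 10 members were higher in the library labelled KPR_restored, from a log2 difference of 0.36 for *Junb* to 2.98 for *Atf3*, with a median of 0.95. The difference was taken as log2(FPKM + 0.005) in KPR_restored minus KPR-, where FPKM is a fragment count adjusted for how long the transcript is and how deep the library, and 0.5 either way was the threshold. It was reached by 9 of the 10 members in the higher direction and by 0 in the lower, against 13.8% of all 23183 genes higher and 12.9% lower. A difference of 1 or more was found for 5 members, against 7.01% of all genes. The median of all genes was 0.0, and that of the 11231 expressed genes, meaning those whose FPKM averaged 1 or more over both libraries, was 0.0086. *Fosb*, at an average of 0.812 FPKM, is the 1 member that is not among them. Every counting interval of the members lay above 0. These 95% intervals are exact Clopper-Pearson limits on estimated fragments and cover counting error only.

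**Figure D1:**
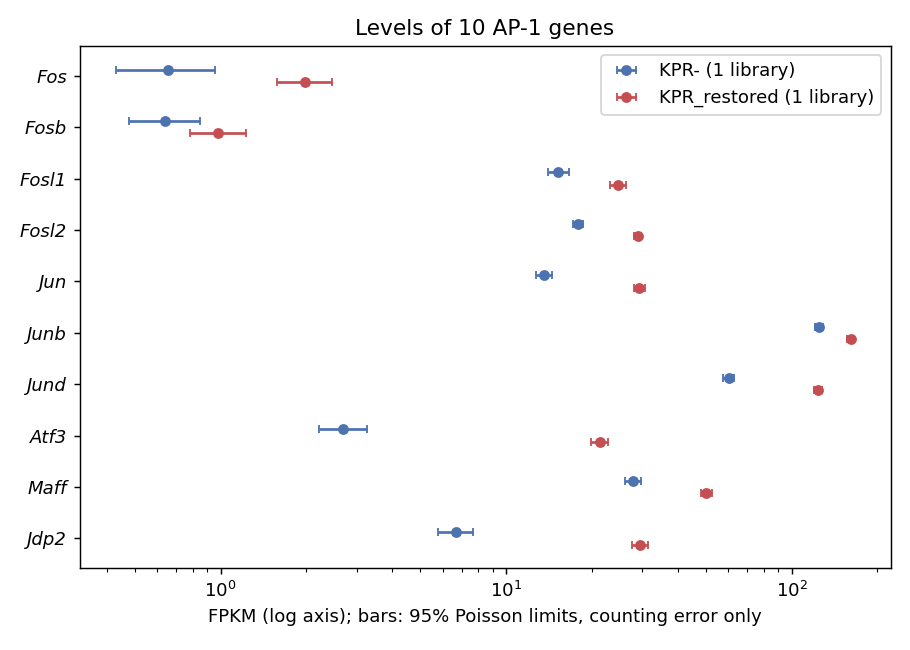
FPKM of each AP-1 gene on a log axis, 1 point per library with 95% Poisson limits that cover counting error only. All 10 genes lie further right in the KPR_restored library, and the limits of the 2 libraries overlap for *Fosb* alone.

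Among the Jun genes, which supply the obligate partners of Fos proteins, *Junb* was the most abundant AP-1 gene in both libraries and had the lowest log2 difference, though inside the interval of *Fosb*, which lay below it with a pseudocount of 1 FPKM (0.27 against 0.36). It had 125 FPKM in KPR- and 161 FPKM in KPR_restored, a log2 difference of 0.36 (0.31 to 0.42), under the threshold. *Jund*, often described as a brake on growth, had 60.2 FPKM in KPR- and 124 FPKM in KPR_restored, a log2 difference of 1.04 (0.97 to 1.12). *Jun*, the founding member and main target of JNK kinases, had 13.6 and 29.3 FPKM, which is a log2 difference of 1.11 (0.99 to 1.22). The share of *Junb* in the Jun family FPKM was 62.9% in KPR- and 51.2% in KPR_restored, while that of *Jund* was 30.3% and 39.5% and that of *Jun* 6.83% and 9.31%. The family sum was 199 FPKM in KPR- and 315 FPKM in KPR_restored, a 1.58-fold difference. All 3 are single-exon genes. *Jund* shares 543 of its 1668 transcript bases with *Gm11175* on the other strand, and whether the FPKM estimation used strand is not given in the sources used here.

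Among the Fos genes, the Fra genes *Fosl1* and *Fosl2* made up nearly the whole family in both libraries. *Fosl2*, which encodes Fra-2, had 17.9 FPKM in KPR- and 28.9 FPKM in KPR_restored, a log2 difference of 0.69 (0.62 to 0.76). *Fosl1* had 15.2 and 24.7 FPKM, a log2 difference of 0.70 (0.54 to 0.85). These differences lie inside each other's intervals. *Fosl1* shares 1163 of its 1864 transcript bases with *Ccdc85b* on the other strand, which had 28.7 and 32.9 FPKM and a log2 difference of 0.20 (0.13 to 0.27). *Fos*, the classic serum-induced gene, had 0.654 FPKM from about 27 fragments in KPR- and 1.98 FPKM from about 84 fragments in KPR_restored. Its log2 difference of 1.59 has the widest interval of the members (0.95 to 2.28). *Fosb* had 0.641 and 0.983 FPKM from about 50 and 79 fragments, a log2 difference of 0.61 (0.09 to 1.16). With a shorter coding transcript of 1090 bases its interval was -0.50 to 1.79 and included 0, and with a pseudocount of 1 FPKM its difference was 0.27, under the threshold. *Fosl1* and *Fosl2* together were 25.6 times as abundant as *Fos* and *Fosb* together in KPR- and 18.1 times in KPR_restored. The family sum went from 34.4 to 56.6 FPKM, a 1.64-fold difference. The Jun family remained more abundant, at 5.78 times the Fos family in KPR- and 5.56 times in KPR_restored.

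The largest differences were those of *Atf3* and *Jdp2*, the members known as repressors. *Atf3* had 2.69 FPKM from about 104 fragments in KPR- and 21.3 FPKM from about 846 fragments in KPR_restored, 7.92 times as much, with a log2 difference of 2.98 (2.68 to 3.29). Of the 11231 expressed genes, 0.134% had a larger difference, which placed it at rank 16. *Jdp2* had 6.69 and 29.4 FPKM, 4.40 times as much, with a log2 difference of 2.14 (1.92 to 2.36), at rank 46. The interval of *Atf3* lay above that of *Jdp2*. That of *Jdp2* lay above those of all other members except *Fos*. Together these genes went from 9.38 to 50.7 FPKM, a 5.41-fold difference, while the Fos and Jun genes together went from 233 to 371 FPKM, a 1.59-fold difference. The ratio of the second sum to the first was 24.9 in KPR- and 7.31 in KPR_restored. Since *Atf3* and *Jdp2* each have a larger difference than any Fos or Jun gene, the larger fold and the lower ratio follow from the grouping. *Maff* is in neither sum. The share of *Atf3* and *Jdp2* in the FPKM of the 10 members was 3.47% and 10.8%. Protein levels and dimers were not measured.

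**Figure D2:**
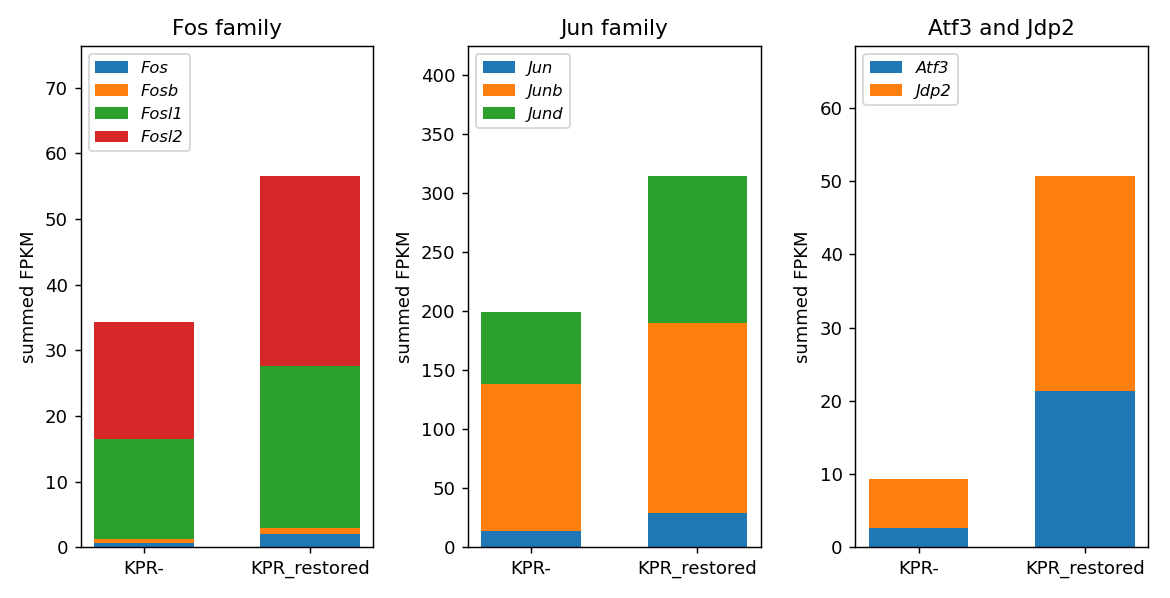
Summed FPKM of the Fos genes, the Jun genes, and *Atf3* with *Jdp2*, as bars stacked by gene for each library (1 library each, linear axes from 0 that differ between panels). The third sum goes from 9.38 to 50.7 FPKM, against 34.4 to 56.6 FPKM for the Fos genes and 199 to 315 FPKM for the Jun genes.

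*Maff*, which pairs with NRF2 and related factors as well as with itself, was the third most abundant member in both libraries. It had 27.8 FPKM in KPR- and 50.2 FPKM in KPR_restored, a log2 difference of 0.85 (0.74 to 0.96). The other small MAF genes were *Mafg*, at 31.7 and 38.9 FPKM (log2 difference 0.29, 0.23 to 0.36), and *Mafk*, at 13.7 and 19.7 FPKM (0.52, 0.38 to 0.65). Their intervals lay below that of *Maff*. With the shortest coding *Maff* transcript of 633 bases, its interval was 0.63 to 1.08 and overlapped that of *Mafk*. In KPR- *Mafg* had the highest level of the small MAF genes, and in KPR_restored *Maff* had.

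**Figure D3:**
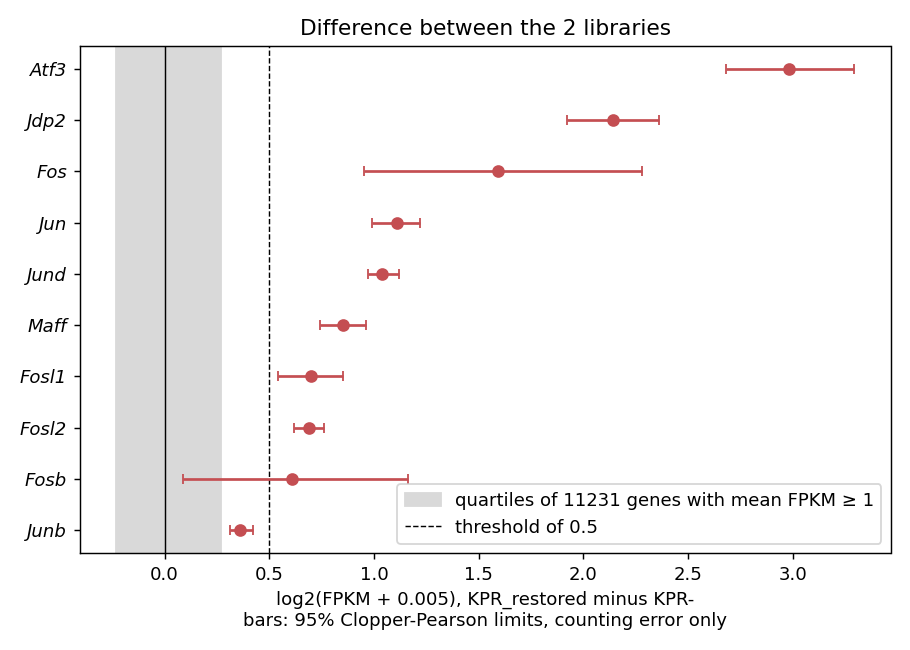
Log2 difference of each member, KPR_restored minus KPR-, with 95% Clopper-Pearson limits that cover counting error only. The gray band spans the range between the quartiles of the 11231 expressed genes (-0.23 to 0.27), and only *Junb* lies below the dashed threshold of 0.5, at 0.36.

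The order of the members by level also differed between the libraries. In KPR- it was *Junb*, *Jund*, *Maff*, *Fosl2*, *Fosl1*, *Jun*, *Jdp2*, *Atf3*, *Fos* and *Fosb*. Of neighbours in this order, only *Fos* and *Fosb* did not differ beyond counting error, with a ratio of 1.02 (0.61 to 1.65). In KPR_restored *Jdp2* had moved up to follow *Maff*, ahead of *Jun*, *Fosl2*, *Fosl1*, *Atf3*, *Fos* and *Fosb*. There *Jdp2* and *Jun* (ratio 1.01, 0.93 to 1.09) and *Jun* and *Fosl2* (1.01, 0.96 to 1.07) did not differ beyond counting error, whereas *Fos* was 2.01 times (1.45 to 2.76) as abundant as *Fosb*. In FPKM, the 10 members together went from 271 to 472, and *Jund* held 31.7% of the difference of 201, *Junb* 17.9%, *Jdp2* 11.3%, *Maff* 11.1% and *Atf3* 9.24%. The genes with the largest log2 differences were therefore not those that added most FPKM.

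The other genes of the network were described by 4 lists. Of 20 bZIP genes that pair or compete with the members, 8 were higher and 3 lower by 0.5 or more. The median was 0.26, or 0.41 over the 12 that were expressed. The 8 higher genes are 40.0% of the list, against 13.8% of all genes. The share of the 3 lower genes was near the 12.9% of all genes. Of the 12 expressed genes, 0 were lower by 0.5 or more. *Atf4*, the master factor of the integrated stress response, went from 145 to 446 FPKM (log2 difference 1.62, 1.58 to 1.67), and *Ddit3*, which encodes CHOP, from 12.3 to 52.8 FPKM (2.11, 1.87 to 2.35). *Creb5* went from 0.257 to 1.93 FPKM, from about 43 and 334 fragments (2.89, 2.45 to 3.41). The expressed genes of this list that lay lowest had 2.35 and 1.96 FPKM for *Batf3* (-0.26, -1.07 to 0.56), 12.1 and 10.7 FPKM for *Atf7* (-0.18, -0.28 to -0.09) and 7.52 and 7.13 FPKM for *Nfe2l3* (-0.08, -0.28 to 0.13). The 3 genes lower by 0.5 or more were *Maf*, at 1.32 and 0.646 FPKM, *Bach2*, at 0.0607 and 0.0375 FPKM, and *Batf2*, from 1 fragment against 0. *Batf*, which encodes a partner of Jun proteins, was listed at 0 in both libraries.

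Of 28 genes for kinases and factors that act on AP-1 genes or proteins, 0 were higher and 2 were lower by 0.5 or more. These are 0% and 7.14% of the list, against 13.8% and 12.9% of all genes. The median was -0.02, or 0.02 over the 26 that were expressed. *Srf*, which encodes serum response factor, had about 629 and 644 fragments (log2 difference -0.01, -0.17 to 0.15), and the JNK gene *Mapk8* had 4.25 and 4.48 FPKM (0.08, -0.10 to 0.25). The highest values on this list were those of *Mef2d* (log2 difference 0.44), *Elk1* (0.38) and *Mapk11* (0.37). The lowest among expressed genes were those of *Elk4* (-0.70), *Map2k3* (-0.44) and *Elk3* (-0.29). The other gene past the threshold was *Mapk10*, from about 5 and 2 fragments. RNA levels do not measure the phosphorylation by which these kinases act.

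Of 30 genes known from other settings as AP-1 targets, 12 were higher and 4 lower by 0.5 or more, with a median of 0.15, or 0.06 over the 25 that were expressed. The matrix protease genes *Mmp13* and *Mmp3* went from 8.99 to 46.6 FPKM (log2 difference 2.37, 2.23 to 2.52) and from 0.488 to 3.86 FPKM (2.97, 2.23 to 3.79). *Mmp10* went from 0.0898 to 1.95 FPKM, from about 3 and 66 fragments, and *Mmp9* went the other way, from 3.38 to 1.78 FPKM (-0.92, -1.26 to -0.59). *Areg*, a ligand of the EGF receptor, had 28.7 and 105 FPKM, a difference of 1.87. *Ccnd1*, which encodes cyclin D1, went from 331 to 203 FPKM (-0.71, -0.74 to -0.68), *Met*, a receptor tyrosine kinase gene, had 82.8 and 41.5 FPKM, and *Ccl2*, a chemokine gene, had a difference of -0.93. The 4 lower genes are 13.3% of the list, near the 12.9% of all genes, and the 12 higher are 40.0%, against 13.8% of all genes.

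Of 25 other immediate-early genes, 17 were higher and 4 lower by 0.5 or more. The median was 0.74, or 0.79 over the 19 that were expressed. The 17 higher genes are 68.0% of the list, against 13.8% of all genes. The share of the 4 lower genes was near the 12.9% of all genes. Of the 19 expressed genes, 2 were lower by 0.5 or more. *Dusp1*, which encodes a phosphatase that shuts off JNK and p38, had a difference of 2.06 (1.89 to 2.23), *Btg2*, an antiproliferative gene, of 1.75 (1.46 to 2.05) and *Klf4* of 1.08 (0.99 to 1.18). *Ctgf* had a difference of -1.08 (-1.18 to -0.98) and *Gadd45b* of -0.53 (-0.69 to -0.37), and *Arc* had 0.722 and 0.467 FPKM (-0.62, -1.35 to 0.07). *Egr1*, like *Fos* a classic serum response gene, had 0.830 and 2.28 FPKM (1.45, 0.98 to 1.94), inside the interval of *Fos*. Some listed genes stand on few fragments, such as *Nr4a3*, with about 10 fragments in KPR- and listed at 0 in KPR_restored.

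**Figure D4:**
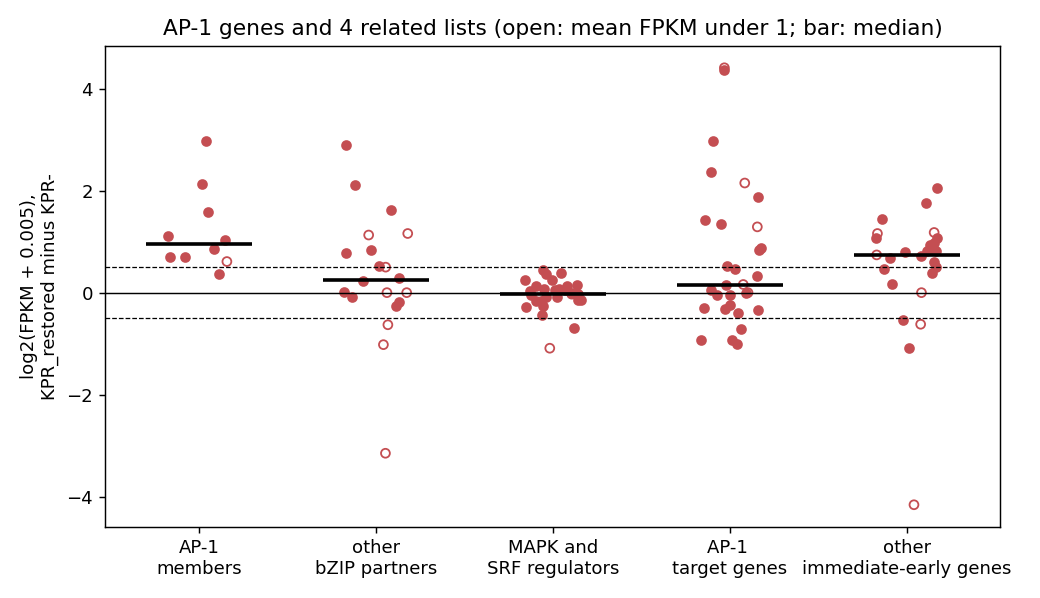
Log2 difference of every gene of the AP-1 members and of 4 related lists, 1 point per gene, open where the mean FPKM is under 1, with the median as a bar and the threshold of 0.5 either way dashed. The medians are 0.95 for the members, 0.26 for other bZIP genes, -0.02 for MAPK and SRF regulators, 0.15 for AP-1 target genes and 0.74 for other immediate-early genes.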

How the data were processed

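mRNA sequencing of KPR- and KPR_restored cells was used, with 1 library each. The authors selected poly(A) RNA, made directional libraries, trimmed the reads, aligned the pairs to mm10 (TopHat) and deposited FPKM values from Cufflinks. Versions are not given in the sources used here. The columns were used as deposited, on the log2(FPKM + 0.005) scale with a threshold of 0.5, which understates differences of genes near the pseudocount.

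Depth was estimated from 4314 genes with a single GENCODE M21 transcript of at least 350 bases, as the depth and mean fragment length (212 bases) that put fragment numbers nearest to whole numbers. Of such genes with 0.5 to 5.5 fragments, 75.3% in KPR- and 77.8% in KPR_restored had a number no further than 0.1 from a whole one (20% by chance). Fragments per gene were then rounded, using the longest transcript with a RefSeq counterpart, and are upper estimates where transcripts differ in length. Intervals of levels are exact Poisson limits and those of differences and ratios exact Clopper-Pearson limits (95%). They cover counting error only. The scripts were tested on simulated data.

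The members and lists were chosen with earlier results of these data known, as were the promoter motifs. Named genes were the 10 members, *Runx3*, and in each list, among genes averaging 1 FPKM or more, the 3 that rose and the 3 that fell most in log2(FPKM + 1). Others were chosen after their values were seen: *Mafg*, *Mafk*, *Maf*, *Bach2*, *Batf*, *Batf2*, *Srf*, *Mapk8*, *Mapk10*, *Mmp9*, *Mmp10*, *Egr1*, *Nr4a3*, *Arc*, the genes that overlap or lie beside a member, and the marker genes. With 2 libraries, no gene could be named for a pattern like that of a member. Some list and marker genes are not reported here. Sequences are from RefSeq on GRCm38.p6 and GENCODE M21. Computation was in Python 3.11.15 with scipy 1.17.1, numpy 2.4.6, pandas 2.3.3 and, for plots, matplotlib 3.10.9.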

Additional observations from a re-analysis of the deposited data

How the results depend on the processing

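All 10 members were higher in the library labelled KPR_restored under every pseudocount and scaling tried, as were the members that each filter left (9 averaging 1 FPKM or more). The median of the members was 0.84 with a pseudocount of 1 FPKM, 1.04 over those 9, and 0.91 after scaling to the same upper quartile, against 0.95. With a pseudocount of 1 the difference of *Fos* was 0.85, that of *Atf3* 2.60 and that of *Fosb* 0.27, which left 8 members higher by 0.5 or more, since this pseudocount shrinks differences of low genes. With a threshold of 1, 5 of 10 members, 5 of 20 other bZIP genes and 7 of 25 other immediate-early genes were higher, against 7.01% of all genes. Lower by 1 or more were 1 MAPK or SRF regulator, 0 AP-1 target genes and 2 other immediate-early genes. The regulator was *Mapk10*, from about 5 and 2 fragments. The 2 immediate-early genes were *Ctgf* and *Nr4a3*, the latter from about 10 fragments against 0. The lower limit of the *Fosb* counting interval was -0.50 with the shortest coding transcript. Other bZIP genes numbered 5 higher with a pseudocount of 1 and with a mean FPKM of at least 5, and 1 lower with a pseudocount of 0.1 and 0 lower with a pseudocount of 1 or either filter. MAPK and SRF regulators numbered 1 lower under both pseudocounts and both filters. With a mean FPKM of at least 5, 7 AP-1 target genes and 10 other immediate-early genes were higher, and 2 other immediate-early genes were lower with a pseudocount of 1 or either filter. The filters leave fewer genes to count. Scaling moved the median gene by -0.034 at most. No paired analysis was possible because each condition is 1 library.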

Other observations

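*Fos* and *Jdp2* lie on the same strand of chromosome 12, 121.8 kb apart, with *Batf* 46.8 kb beyond *Jdp2*. *Fos* and *Jdp2* had log2 differences of 1.59 and 2.14, while *Batf* was listed at 0 in both libraries. The nearest expressed genes on either side that are not members (averaging 1 FPKM or more), *Tmed10* and *Ttll5*, had differences of -0.39 and -0.45. Around all 10 members, with the members themselves left out, the nearest such genes on each side were 18 genes, of which 1 was higher (*Hook2*, beside *Junb*, 0.51) and 0 were lower by 0.5 or more, with a median of 0.14 and a range of -0.45 to 0.51. Of all genes, 13.8% were higher and 12.9% lower by 0.5 or more, and 18 genes are too few to set against these shares. These neighbours were chosen after the members' values were seen. *Batf3*, which lies 61.4 kb from *Atf3*, had a difference of -0.26 beside 2.98 for *Atf3*.

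AU-rich elements are known to speed the decay of immediate-early transcripts. The nonamer TTATTTANT was found in the 3′ UTR of 3 of the 10 members, *Fos*, *Fosl2* and *Maff*, and in 12.6% of 10360 expressed genes. A stretch of 30 bases with the nonamer in capitals is given for each from the GENCODE M21 transcripts.
Fos: cgtttttattgtgttttcaatTTATTTATT
Fosl2: aagaaattgacatttattttaTTATTTATT
Maff: acagctgactcttccacactcTTATTTATT
The shorter ATTTA was found in 9 of the 10 members, 4 times each in *Fos*, *Jun* and *Maff*, 8 times in the longer 3′ UTR of *Fosl2*, and 0 times in *Jdp2*. The median was 2.20 ATTTA per kb of 3′ UTR over the members and 1.32 over the expressed genes. The median 3′ UTR lengths were 1053 and 1082 bases. The share of expressed genes that hold an ATTTA is not given here, so 9 of 10 cannot be read as particular to the members. *Atf3* and *Jdp2* held no nonamer, and *Atf3* held 3 ATTTA. RNA decay was not measured, and its part in the differences was not tested. Of these 10360 expressed genes, 12.2% of the 1308 with a nonamer and 11.8% of the 9052 without one were higher by 0.5 or more.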
